A study of Mus musculus with 6 samples.

Results

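Small nucleolar RNAs (snoRNAs) are short RNAs that stay in the nucleus and guide the chemical modification of other RNAs. Box C/D snoRNAs, with symbols that begin with Snord, pair with ribosomal RNA and direct the methyltransferase fibrillarin to a ribose. H/ACA snoRNAs, with symbols that begin with Snora, direct the pseudouridine synthase dyskerin. The small Cajal body RNAs (scaRNAs, Scarna) guide the modification of spliceosomal RNAs. Most of all these RNAs in mammals are cut out of introns of other genes, called host genes, after splicing. Rbm24 is an RNA-binding protein that takes part in splicing in heart muscle.

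The members were the transcript clusters, the array's units of measurement, that were annotated with 1 symbol beginning with Snord, Snora or Scarna. There were 73 such clusters for 69 symbols, among 30098 genes with a cluster of 1 symbol, and where a symbol had several clusters the one of the highest average signal was kept. Of the 69 members, 45 were box C/D snoRNAs, 18 were H/ACA snoRNAs and 6 were scaRNAs. A further 45 clusters carried a snoRNA symbol among several symbols and were not members.

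The study injected male C57/Bl6 mice at 1 week of age, into the abdominal cavity, with 4000000000000 vg (viral genomes) of an adeno-associated virus of serotype 9, and left ventricles were taken 2 weeks after injection. AAV9-Rbm24 carried a flag-tagged mouse Rbm24 open reading frame under the CMV promoter, and AAV9-GFP was the control virus. The promoter is not restricted to heart muscle cells. The study's staining found the flag tag in a fraction of the heart muscle cells, and the study describes the overexpression as limited to that cell type. All mice were wildtype, so that the endogenous Rbm24 gene was intact in both groups. RNA of 3 AAV9-GFP and 3 AAV9-Rbm24 hearts was measured on 1 Mouse Transcriptome Array 1.0 each, and values are log2 signals.

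The Rbm24 cluster read 13.95, 13.63 and 13.57 in AAV9-GFP hearts and 14.58, 14.74 and 15.12 in AAV9-Rbm24 hearts, a log2 difference of 1.10 ± 0.17 (SE, n = 3 per group, limma adjusted p = 0.0607), so the 3 arrays of each label were on the labelled side. AAV9-GFP replicate 2 stood apart from the other arrays, with -64.3 on a first principal component that held 37.4% of the variance, while the other 5 arrays lay between -9.74 and 41.4. The 6 cardiomyocyte markers had mean log2 signals between 13.6 and 19.9 and none was called. Of their differences 5 were negative and 1 positive. Ryr2 and Tnni3 were lower on every AAV9-Rbm24 array, by -0.36 and -0.20 on the log2 scale. Actc1, Tnnt2 and Myh6 read between 19.8 and 19.9, near the highest mean of any cluster, 19.9, where a change can be hidden. Of 8 macrophage markers 5 were called higher (limma adjusted p under 0.05), and so were 3 of 7 fibroblast markers. All 8 macrophage markers and 5 of the 7 fibroblast markers were highest in AAV9-Rbm24 replicate 3. The part of these cells in the snoRNA values was not tested, and in bulk tissue fewer cells of a type and less RNA per cell cannot be told apart.

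None of the 69 snoRNAs passed an adjusted p of 0.05 between AAV9-Rbm24 and AAV9-GFP hearts (limma, Benjamini-Hochberg over all 65956 clusters), where 0.241% of all clusters were called higher and 0.0258% lower. By the looser rule of an unadjusted p under 0.05, 8 members stood higher and 1 stood lower, and the smallest adjusted p of any member was 0.122, for Snord43. The 8 members are 11.6% of the 69, against 4.08% of all clusters that were higher by that rule, and the 1 lower member is 1.45%, against 4.33%. The background moved with signal. Where the mean log2 signal was 6 or more, the share was 12.5% of 64 members against 7.85% of clusters, and at a mean of 8 or more it was 6.67% of 45 members against 9.28% of clusters. In the analysis of variance that the study's methods name, 7 members had an unadjusted p under 0.05 and 0 clusters passed after adjustment.

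Only Snord43 also passed a fold of at least 1.5, a rule that 1.23% of all clusters met as higher and 0.552% as lower. In 10 members every AAV9-Rbm24 array was above every AAV9-GFP array and in 2 members every one was below, where the shares of all clusters were 7.01% and 7.71%. The difference of 53 of the 69 was within 1.2-fold, or 76.8% against 84.5% of all clusters. Of the 69 differences, 41 were positive and 28 negative, and their median was 0.05 on the log2 scale against -0.03 over all clusters. This background moved with signal too. Of the 27410 clusters with a mean log2 signal of 6 or more, 3467 were higher without overlap and 2025 lower. Of the same clusters 21710 were within 1.2-fold, and their median was 0.02, against 0.055 for the 64 members at that signal. The 95% intervals of 47 members lay wholly within 1.5-fold in either direction, and those of 65 members within 2-fold. Without AAV9-GFP replicate 2 the members' median was 0.01, as over all clusters, and without AAV9-Rbm24 replicate 3 it was 0.11 against -0.01. The count of 8 higher members fell to 5 without AAV9-Rbm24 replicate 1, or 7.25% against 3.37% of all clusters. Without AAV9-Rbm24 replicate 2 it fell to 4, or 5.80% against 3.12%. The count of lower members was 4 without AAV9-GFP replicate 2, or 5.80% against 4.70%.

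**Figure D1:**
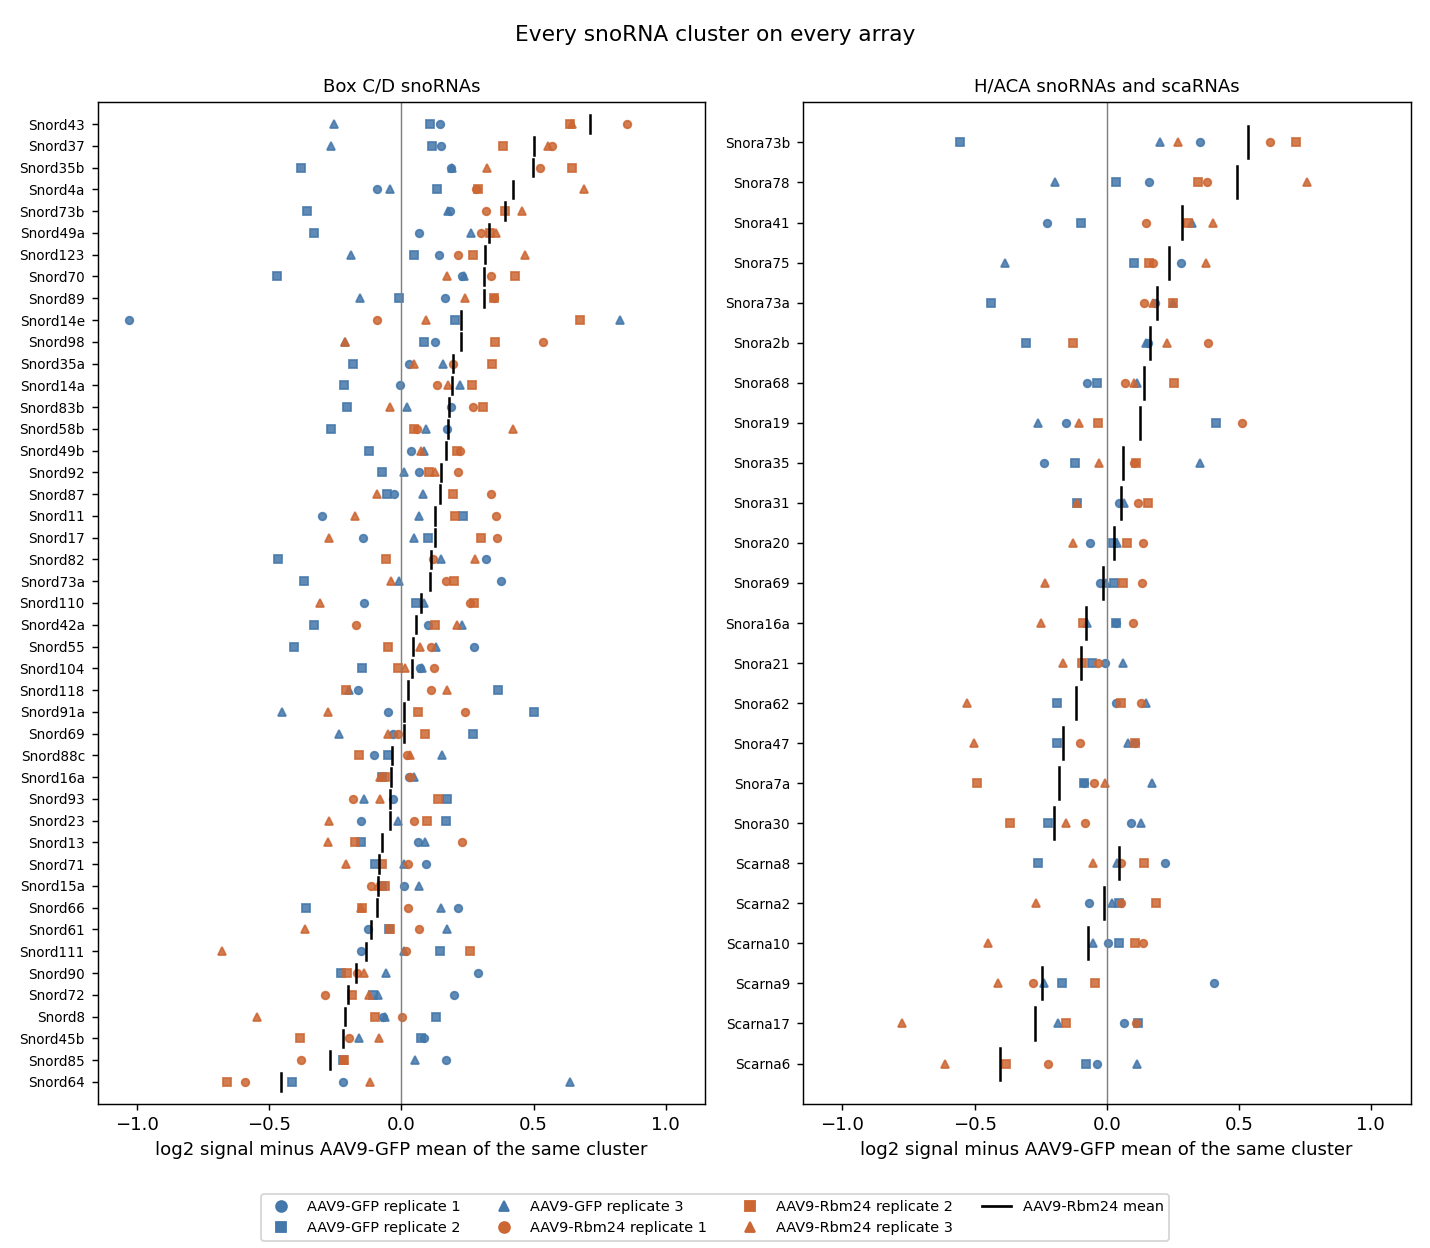
Log2 signal of each snoRNA cluster on each of the 6 arrays, minus the AAV9-GFP mean of that cluster (x axis, log2 units), with 1 row per member and the AAV9-Rbm24 mean as a black bar. The points of most members overlap between the groups, and Snord43 at the top has the AAV9-Rbm24 mean farthest to the right, at 0.71.

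Among the box C/D snoRNAs, Snord43 had the largest difference. It lies within Rpl3, a gene of a large-subunit ribosomal protein. It read 6.84, 6.80 and 6.44 in AAV9-GFP hearts and 7.55, 7.33 and 7.34 in AAV9-Rbm24 hearts. The 3 AAV9-Rbm24 arrays were all above the 3 AAV9-GFP arrays, by 0.71 ± 0.14 (SE) on the log2 scale or 1.64-fold (limma adjusted p = 0.122, over the alternatives between 0.0638 and 0.445). The exact permutation test over the 6 arrays gave p = 0.1, two-sided, which is the smallest that 3 arrays against 3 allow. Of its 6 values, 5 were within the range of the array's 23 background probe rows, from 2.64 to 7.44 on the log2 scale, with AAV9-Rbm24 replicate 1 above it.

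Snord37 lies within Eef2, the gene of a translation elongation factor. It read 7.25, 7.21 and 6.83 in AAV9-GFP hearts and 7.66, 7.48 and 7.65 in AAV9-Rbm24 hearts. The groups did not overlap and differed by 0.50 ± 0.14 (SE, limma adjusted p = 0.305), and all 3 AAV9-GFP values were within the background range. Snord35b read 7.72, 7.15 and 7.72 against 8.06, 8.18 and 7.86, a difference of 0.50 (limma adjusted p = 0.476). Its groups were separate, and AAV9-GFP replicate 2 was well below the other control hearts, without which the difference was 0.31.

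Snord4a, in Rpl23a, read 7.69, 7.92 and 7.74 in AAV9-GFP hearts and 8.07, 8.07 and 8.47 in AAV9-Rbm24 hearts. Snord73b, in Rps3a1, read 9.35, 8.81 and 9.34 against 9.49, 9.56 and 9.63. Both had groups that did not overlap, with differences of 0.42 and 0.39, and for Snord73b the lowest value was again AAV9-GFP replicate 2, without which the difference was 0.21. Snord123, in the noncoding host gene Snhg18, read 9.31, 9.22 and 8.98 against 9.38, 9.44 and 9.64. Snord89, for which no RefSeq gene spans the locus, read 8.63, 8.45 and 8.31 against 8.81, 8.81 and 8.70. Their differences were 0.32 and 0.31, with limma adjusted p of 0.542 and 0.495, and in both the lowest AAV9-Rbm24 array was within 0.1 of the highest AAV9-GFP array.

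Snora78 was the H/ACA snoRNA with an unadjusted p under 0.05. It lies where Rps2 and the noncoding gene Snhg9 overlap in RefSeq. It read 6.42, 6.29 and 6.06 in AAV9-GFP hearts and 6.64, 6.60 and 7.01 in AAV9-Rbm24 hearts, a difference of 0.49 ± 0.15 (SE, limma adjusted p = 0.375), and AAV9-Rbm24 replicate 3 was the highest array. All 6 values were within the background range. Snora73b had the larger difference of 0.54, but its groups overlapped. It read 8.93, 8.02 and 8.78 against 9.20, 9.29 and 8.85, and without AAV9-GFP replicate 2 its difference was 0.26.

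**Figure D2:**
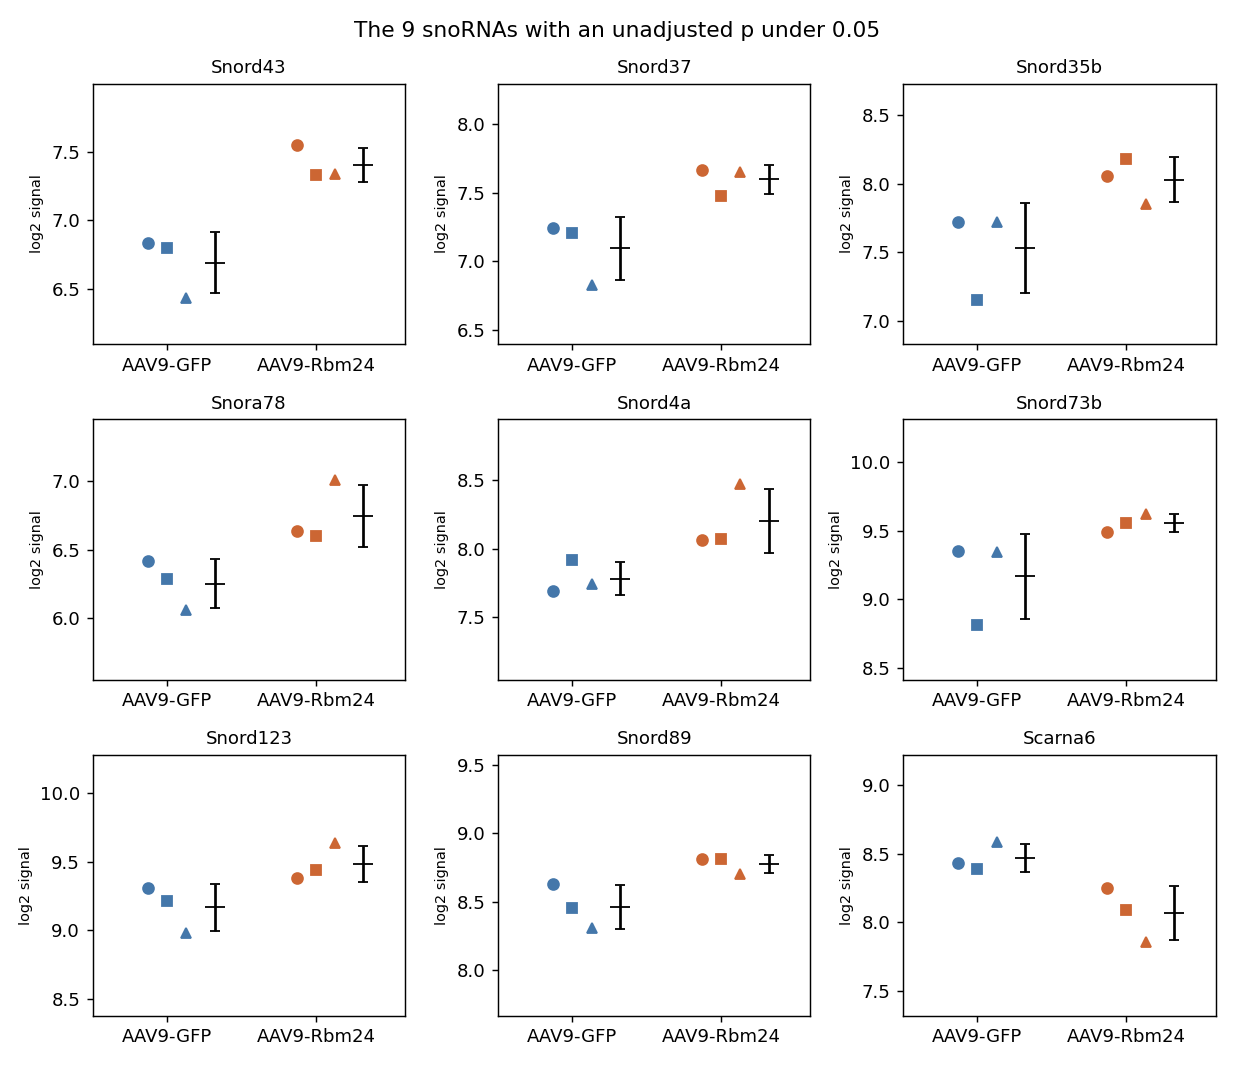
Log2 signal (y axis, the same span in every panel) of the 9 snoRNAs with an unadjusted p under 0.05, with 1 point per heart and the group mean ± SD as a black bar. In all 9 panels the groups do not overlap, with AAV9-Rbm24 hearts above in 8 and below in Scarna6.

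Scarna6 was the member that was lower at an unadjusted p under 0.05. It lies within Atg16l1, an autophagy gene. It read 8.44, 8.39 and 8.59 in AAV9-GFP hearts and 8.25, 8.09 and 7.86 in AAV9-Rbm24 hearts, a difference of -0.40 ± 0.13 (SE, limma adjusted p = 0.401). All AAV9-Rbm24 values were below all control values, and the lowest was AAV9-Rbm24 replicate 3. The other member whose AAV9-Rbm24 arrays were all lower was Snord72, in Rpl37, with 10.10, 9.79 and 9.81 against 9.61, 9.71 and 9.77. Its difference of -0.20 had an unadjusted p of 0.13.

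Of the 6 scaRNAs, 5 had a negative difference, and their median was -0.16 on the log2 scale. Scarna17 read 12.68, 12.74 and 12.43 in AAV9-GFP hearts and 12.73, 12.47 and 11.84 in AAV9-Rbm24 hearts. Scarna10 read 10.19, 10.24 and 10.14 against 10.33, 10.30 and 9.74. In both, AAV9-Rbm24 replicate 3 was the lowest array, and the other AAV9-Rbm24 arrays of Scarna10 were above all AAV9-GFP arrays. The same array was the lowest for 5 of the 6 scaRNAs, the exception being Scarna8, and without it the median of the 6 was 0.04. Scarna9 differed by -0.24 (limma adjusted p = 0.786) with 9.89 in AAV9-GFP replicate 1 and between 9.08 and 9.45 on the other 5 arrays, and by -0.04 without that array. Scarna2 and Scarna8 differed by -0.01 and 0.05.

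The box C/D and H/ACA classes were compared array by array, since snoRNAs are not replicates of a condition. The median difference was 0.07 on the log2 scale for the 45 box C/D snoRNAs and 0.06 for the 18 H/ACA snoRNAs, 0.02 apart. Without single arrays the box C/D median ranged from 0.02 to 0.14, the H/ACA median from -0.001 to 0.12 and the gap from 0.02 to 0.07, and with quantile normalization repeated the gap was -0.03. With an unadjusted p under 0.05, 7 box C/D members (15.6%) and 1 H/ACA member (5.56%) were higher, against 4.08% of all clusters. No member of either class was lower, against 4.33%. At a mean log2 signal of 8 or more, 3 of 31 box C/D members (9.68%) and 0 of 10 H/ACA members were higher, against 9.28%. The box C/D count was 4 without AAV9-Rbm24 replicate 1 and 3 without AAV9-Rbm24 replicate 2. Each member's value was then set against its own mean over the 6 arrays, and the median of these deviations was taken per class. The box C/D median minus the H/ACA median was -0.04, -0.0003 and -0.04 in AAV9-GFP hearts and 0.02, 0.03 and 0.03 in AAV9-Rbm24 hearts. The gap was higher on every AAV9-Rbm24 array than on every AAV9-GFP array, at the closest 0.02 against -0.0003. These gaps were small beside the movement of both classes between arrays. AAV9-GFP replicate 2 was at -0.12 for box C/D and for H/ACA, and AAV9-Rbm24 replicates 1 and 2 were between 0.08 and 0.10 for both. AAV9-Rbm24 replicate 3 was at -0.02 and -0.06. AAV9-GFP replicate 2 and AAV9-Rbm24 replicate 3 each held the lowest value of 22 of the 69 members, or 31.9%. Among all clusters these arrays were the lowest in 17.0% and 22.2%.

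**Figure D3:**
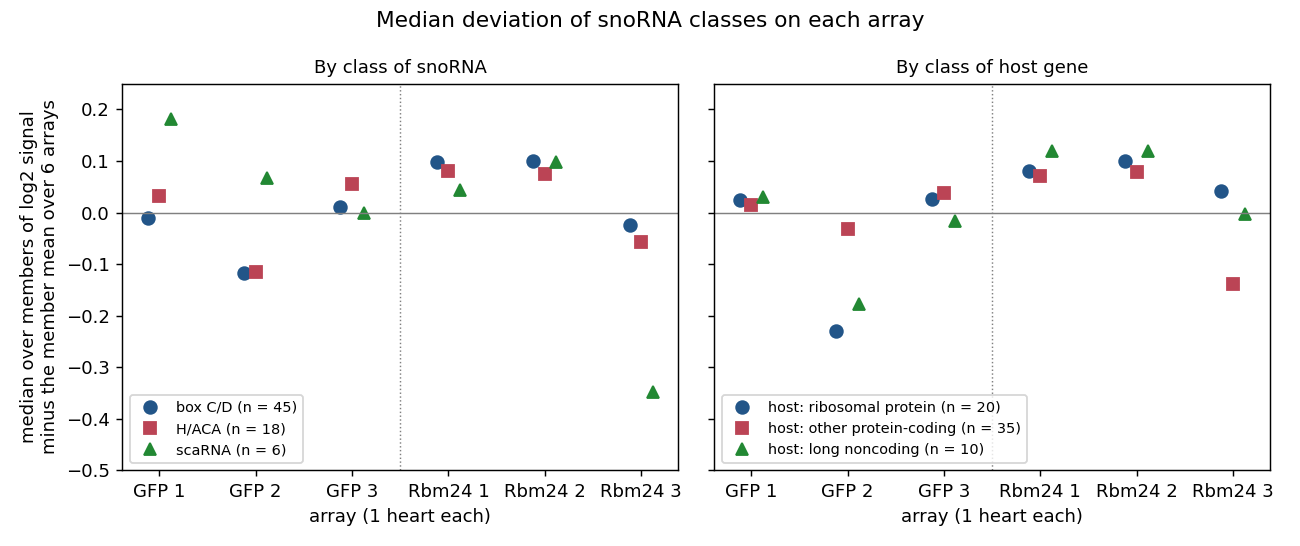
Median deviation of the members of each class from their own mean over 6 arrays (y axis, log2 units) on each array (x axis, 1 heart each), by class of snoRNA on the left and by class of host gene on the right. Box C/D and H/ACA sit close together on every array, both at -0.12 in AAV9-GFP replicate 2, and the scaRNA median is at -0.35 in AAV9-Rbm24 replicate 3.

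Some snoRNAs act in cutting the ribosomal RNA precursor and do not only guide modification. Of this list 6 were members, and none had an unadjusted p under 0.05. Snora73a and Snora73b, the U17 snoRNAs of small-subunit rRNA processing, lie in Snhg3, and Snora73a differed by 0.19 (limma adjusted p = 0.831), or by -0.03 without AAV9-GFP replicate 2. Snord14a and Snord14e, copies of U14, differed by 0.19 and 0.23. Snord14e varied most among the control hearts, with 9.01, 10.24 and 10.86 against 9.94, 10.71 and 10.13 in AAV9-Rbm24 hearts, and without AAV9-GFP replicate 1 its difference was -0.29. Without AAV9-GFP replicate 2 that of Snord14a was 0.08. Snord13 differed by -0.07, and Snord118, the U8 snoRNA of large-subunit rRNA processing, by 0.02. Copies with near-identical sequence may share probe signal, so the values of Snora73a and Snora73b, and of Snord14a and Snord14e, are uncertain as values of single copies. The 2 clusters of Snora73b differed by 0.54 and 0.49, those of Snord58b by 0.18 and 0.17, those of Snord13 by -0.07 and -0.06, and those of Snord118 by 0.02 and -0.34.

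U3, the most abundant box C/D RNA of rRNA processing, is annotated as Rnu3 genes and was not a member. Rnu3b4 read 11.02, 12.22 and 12.58 in AAV9-GFP hearts and 13.09, 12.89 and 12.65 in AAV9-Rbm24 hearts. The groups did not overlap and differed by 0.94 (limma adjusted p = 0.522). AAV9-GFP replicate 1 was far below the other control hearts, and without it the difference was 0.48. The clusters of Rnu3b1, Rnu3b2 and Rnu3b3 held identical values on every array and differed by 0.93, or by 0.39 without that array, so they are 1 measurement. Rnu3a differed by 0.19.

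The imprinted snoRNA among the members was Snord64, from the Snhg14 transcript of the Prader-Willi region. It had the largest negative difference, -0.46 on the log2 scale, but the groups overlapped. It read 8.95, 8.76 and 9.81 in AAV9-GFP hearts and 8.58, 8.51 and 9.05 in AAV9-Rbm24 hearts, and without AAV9-GFP replicate 3 the difference was -0.14. Snord35a, the member from Rpl13a, differed by 0.19 (limma adjusted p = 0.744), or by 0.10 without AAV9-GFP replicate 2. Snora35, known as a brain snoRNA from the serotonin receptor gene Htr2c, read between 4.47 and 5.06 on the 6 arrays. It was 1 of 5 members with a mean log2 signal under 6, beside Snord85, Snord88c, Snord118 and Scarna8, and the medians of the background probe rows were between 3.54 and 3.76 on the 6 arrays.

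The 5 members with the highest mean signal of box C/D and the 5 of H/ACA had differences of at most 0.20 in size. Snord69, in Gnl3, read 16.51, 16.82 and 16.31 in AAV9-GFP hearts and 16.53, 16.63 and 16.50 in AAV9-Rbm24 hearts, a difference of 0.01 with a 95% interval from -0.32 to 0.34. Snord61, Snord42a, Snord55 and Snord16a differed by -0.11, 0.06, 0.04 and -0.04. Of the H/ACA snoRNAs, Snora21, Snora16a, Snora69, Snora30 and Snora47 differed by -0.10, -0.08, -0.01, -0.20 and -0.17. None of these 10 had groups that did not overlap.

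Besides the 8 members with an unadjusted p under 0.05, Snord49a and Snord92 were above every AAV9-GFP array on all AAV9-Rbm24 arrays. Snord49a, from a noncoding host, read 11.16, 10.76 and 11.35 in AAV9-GFP hearts and 11.39, 11.43 and 11.45 in AAV9-Rbm24 hearts, a difference of 0.33, or 0.17 without AAV9-GFP replicate 2. Snord92, in Wdr43, differed by 0.15. Snord70, Snora41, Snora75 and Snord98 differed by 0.31, 0.29, 0.24 and 0.22, and at the other end Snord45b, Snord8 and Snord85 by -0.22, -0.21 and -0.27, all with overlapping groups. Single arrays moved several of these. Without AAV9-GFP replicate 2 Snord70 differed by 0.08, without AAV9-GFP replicate 3 Snora75 by 0.05, and without AAV9-GFP replicate 1 Snora41 by 0.17. Without AAV9-Rbm24 replicate 1 Snord98 differed by 0.07, and without AAV9-Rbm24 replicate 3 Snord8 by -0.05. The members that are not named differed by between -0.18 and 0.17, and the groups of each overlapped.

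Snora19, an H/ACA snoRNA within Eif3a, the gene of a translation initiation factor subunit, is shown because the RefSeq interval of the snoRNA lies inside a microRNA hairpin, so that 2 kinds of small RNA share 1 sequence. In GRCm38.p6 it spans chr19:60774330-60774385 on the minus strand, within the 69 bases of the Mir3084-2 hairpin. The capitals mark the ACA that H/ACA snoRNAs carry 3 bases before their end, and in both mature microRNAs the seed, bases 2 to 8.
Snora19: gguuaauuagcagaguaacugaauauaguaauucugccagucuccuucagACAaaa
mmu-miR-3084-5p: gUUGAAGGuuaauuagcagagu
mmu-miR-3084-3p: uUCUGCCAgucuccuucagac
The 3p microRNA is bases 32 to 52 of the snoRNA interval and its end includes the first 2 letters of the ACA. The 5p microRNA starts before the interval. The Snora19 cluster read 8.18, 8.75 and 8.08 in AAV9-GFP hearts and 8.85, 8.31 and 8.23 in AAV9-Rbm24 hearts, with overlapping groups and a difference of 0.13 (limma adjusted p = 0.925). A probe in the shared bases reads both RNAs.

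For 65 of the 69 members a RefSeq gene spans the locus. The host was a ribosomal protein gene for 20 members, another protein-coding gene for 35 and a long noncoding gene for 10. A locus spanned by a coding and a noncoding gene, such as that of Snora78, was counted under the coding gene. This grouping was chosen after the values were seen and is a description. The median difference was 0.13 in ribosomal protein hosts, 0.03 in other coding hosts and 0.10 in noncoding hosts. Of the 8 higher members at an unadjusted p under 0.05, 5 had a ribosomal protein host, among them Snord43, Snora78, Snord4a and Snord73b. They are 25% of the 20, against 4.08% of all clusters. At a mean log2 signal of 8 or more it was 1 of 10 members, or 10% against 9.28%, with a median of 0.02. The median of the 14 box C/D members in ribosomal protein hosts was 0.18, and that of the 6 H/ACA members was -0.05. AAV9-GFP replicate 2 was at -0.23 for the members with ribosomal protein hosts, and without it their median was 0.02 while that of the members with noncoding hosts was 0.01.

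Members from 1 host gene can be compared within an array. There were 7 such pairs. Snord43 and Snord83b both lie in Rpl3, and Snord83b read 8.03, 7.64 and 7.87 in AAV9-GFP hearts and 8.12, 8.16 and 7.80 in AAV9-Rbm24 hearts. Snord43 minus Snord83b was -1.19, -0.84 and -1.43 in AAV9-GFP hearts and -0.57, -0.83 and -0.46 in AAV9-Rbm24 hearts. The difference between groups was 0.54 with no overlap, though by a margin of about 0.01 between the closest arrays (exact permutation test, two-sided p = 0.1, the smallest possible). The groups of the other 6 pairs overlapped, with p between 0.2 and 0.8 in the same exact test. Snord4a and Snord42a of Rpl23a differed by 0.42 and 0.06, and Snord73b and Snord73a of Rps3a1 by 0.39 and 0.11.

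A host gene with a cluster of its own was available for 38 members, for Snora78 that of Snhg9. Across these 38 pairs the log2 differences of snoRNA and host had a Pearson correlation of 0.50 and a Spearman correlation of 0.49, and 24 pairs had the same sign. The pairs share the 6 arrays, and some share a host, so this is a description. Where several genes with a cluster span a snoRNA, the first by name was used, and the count of signs depends on that choice. For Snord87 it was Mcmdc2 (-0.09), not Snhg6 (0.21), and for Snord91a Srr (-0.11), not Tsr1 (0.48). For Snord71 it was Ap1g1 (0.15), not Gm17344 (-0.02), and for Snord8 Chd8 (0.05), not Gm26590 (0.14). No host was called. Snord70 and Snord11 of Nop58 differed by 0.31 and 0.13, and Nop58 by 0.46. Snord17 differed by 0.13 and its host Snx5, a sorting nexin, by 0.49 (limma adjusted p = 0.2). Snord37 differed by 0.50 and Eef2 by 0.15. Scarna6 differed by -0.40 and Atg16l1 by -0.05. Snord64 differed by -0.46 and Snhg14 by -0.33.

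**Figure D4:**
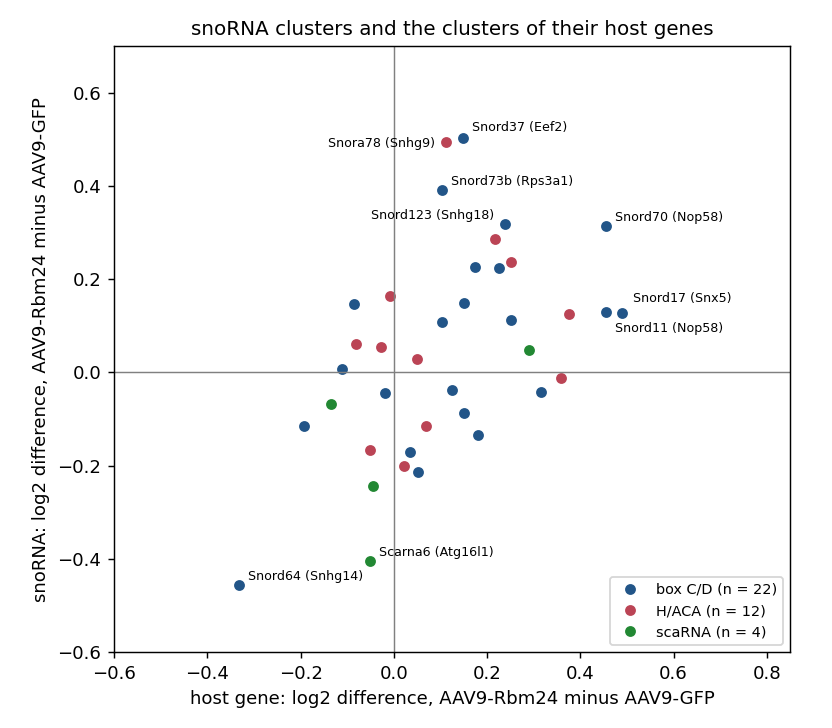
Log2 difference between AAV9-Rbm24 and AAV9-GFP hearts of 38 snoRNA clusters (y axis) against that of the cluster of their host gene (x axis, the first by name where several genes span the snoRNA), coloured by class. Points with the same sign on both axes number 24 of 38, and Snord64 with Snhg14 is at the lower left.

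The proteins that work with snoRNAs were not called. Of the box C/D core, Nop58 read 10.26, 9.95 and 9.96 in AAV9-GFP hearts and 10.47, 10.52 and 10.53 in AAV9-Rbm24 hearts, a difference of 0.46 with separate groups (limma adjusted p = 0.257). The methyltransferase gene Fbl differed by 0.04. These were the 2 genes of this core in the list. Nop56, also of the box C/D core, shares a cluster with Snord57, which differed by 0.07 with overlapping groups. The 4 genes of the H/ACA core, Gar1, Dkc1, Nhp2 and Nop10, differed by between 0.002 and 0.09. Of 16 assembly and transport factors, Pih1d1, a subunit of the complex that assembles box C/D particles, had the smallest p, with a difference of 0.30 (limma adjusted p = 0.518).

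Of 9 small nucleolar RNA host genes with a cluster of 1 symbol, none was called. Snhg5 read 9.002, 8.764 and 8.876 in AAV9-GFP hearts and 9.441, 9.563 and 9.409 in AAV9-Rbm24 hearts. Its groups were well apart, by 0.59 ± 0.11 (SE, limma adjusted p = 0.102), and it was called, at 0.0464, when p-values were adjusted over the clusters with 1 symbol alone. Snhg10 was lower on every AAV9-Rbm24 array, with a difference of -0.31 (limma adjusted p = 0.422). Of 30 genes of RNA polymerase I and rRNA processing none was called, 20 differences were positive and the median of the 30 was 0.09. AAV9-GFP replicate 2 was the lowest array for 22 of them, against 17.0% of all clusters, with a median deviation of -0.19. Npm1, the abundant nucleolar protein nucleophosmin, differed by 0.45 (limma adjusted p = 0.33). Of 23 other small nuclear and structural RNAs none was called, and Rnu2-10, a U2 spliceosomal RNA, differed by 0.58 (limma adjusted p = 0.166).

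The 45 clusters that carry a snoRNA symbol among several can hold probes for the host gene as well. Their median difference was 0.17, with 38 positive and 7 negative. Among all clusters 28276 of 65956 differences were positive, and 14884 of the 27410 at a mean log2 signal of 6 or more. AAV9-GFP replicate 2 was the lowest array in 26 of the 45, against 17.0% of all clusters, with a median deviation of -0.19. Of the 45, 1 was called higher and 0 lower, beside 0.241% and 0.0258% of all clusters. The AAV9-Rbm24 arrays were all above the AAV9-GFP arrays in 16 and below in 0, beside 7.01% and 7.71% of all clusters. At a mean log2 signal of 6 or more, the latter were 3467 and 2025 of 27410 clusters. The called cluster carries 1110038B12Rik and Snord52 and differed by 0.95 (limma adjusted p = 0.0241). Clusters that carry Snhg8, Snhg3 and Snhg1 beside a snoRNA differed by 0.68, 0.59 and 0.58, those with Snhg12 and Snhg16 by 0.19 and 0.08. The 45 hold 43 distinct sets of values, and 1 of them equals a member, Snora19.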

How the data were processed

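The values deposited by the authors are log2 signals, with 1 for each transcript cluster on each array, and the submitters' processing notes name Affymetrix Expression Console and RMA. The genome build of the array annotation is not given in the sources used here. Of 72688 rows, 6732 control rows were left out and 65956 were tested with limma 3.58.1 in R 4.3.3 (lmFit, eBayes, 3 against 3 arrays, two-sided, Benjamini-Hochberg). Symbols were used as the platform annotation gives them, which leaves 30638 clusters with 1 symbol, 2176 with several and 33142 with none. All 69 members were found in the RefSeq table of GRCm38.p6, which also gave the genes that span each member. That table holds no strand, so hosts were not checked for strand. The microRNA sequences are from RefSeq's microRNA table, and that of Snora19 was cut from its Mir3084-2 hairpin by the RefSeq interval. The labels do not say that the hearts came from separate litters or extractions, so p-values measure the spread between these arrays, and 3 arrays per group limit the precision. Named members were those past a threshold, the 12 largest differences in each direction at a mean log2 signal of at least 6, the 5 highest means of box C/D and of H/ACA, and the fixed groups. Genes outside the members were named from the core snoRNP proteins, from the smallest p of each list, or as hosts. Members and lists were chosen with earlier results of these data known. On simulated data of these 65956 clusters, limma called 6% of clusters changed 1.5-fold, 50% changed 2-fold and 96% changed 4-fold at an adjusted p under 0.05. The simulated noise was independent, without an outlying array. In the real data the median SD within groups was 0.21 for the members and 0.16 over all clusters, so fewer may be found among the members. Alternatives were signal minima, an intensity trend, robust variances, array weights, renewed quantile normalization, centring, a replicate block, the methods' analysis of variance, other folds, and leaving out each array.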

Additional observations from a re-analysis of the deposited data

How the results depend on the processing

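No snoRNA passed an adjusted p of 0.05 under any alternative run, and the differences of the 9 snoRNAs with an unadjusted p under 0.05 kept their sign under all of them. The count past a fold of 1.5 with an unadjusted p under 0.05, 1 here, was 0 at a mean log2 signal of at least 8, 2 with array weights, 9 at a fold of 1.2 and 0 at a fold of 2, and ranged from 1 to 3 without single arrays. The count of 10 members higher without overlap was 4 at a mean log2 signal of at least 8, and ranged from 10 to 24 without single arrays, with 24 when AAV9-Rbm24 replicate 3 and 16 when AAV9-GFP replicate 3 was left out. The count of 2 lower without overlap was 7 with quantile normalization repeated and 0 with each array centred on its median, and ranged from 2 to 9, with 9 without AAV9-GFP replicate 2, 6 without AAV9-Rbm24 replicate 1 and 4 without either of the other AAV9-Rbm24 arrays. The shares of all clusters without overlap were not computed in these settings, so these counts have no background beside them. Fewer arrays make groups that do not overlap more frequent by construction. The cause of the other shifts was not tested. Of the lists of snoRNP proteins, assembly factors and host genes 0 were called, and 1 when only clusters with 1 symbol were tested, where fewer clusters enter the adjustment.

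Chosen after seeing the data, the counts at an unadjusted p under 0.05 ranged from 4 to 9 higher and from 1 to 4 lower without single arrays. They were 3 higher at a mean log2 signal of at least 8 and 5 lower with array weights. Same-numbered arrays had deviations that correlated at 0.03, 0.10 and 0.15, and the other pairs of arrays at between -0.12 and 0.03. These values do not exclude a pairing. The labels do not say that the numbers mark pairs, so the replicate numbers were not taken as pairs. With the replicate number as a block, 0 members were called and 1 passed the fold of 1.5 with an unadjusted p. By an unadjusted p under 0.05 there were 8 higher and 2 lower members. They were 11.6% and 2.90%, against 4.42% and 4.88% of all clusters. In this balanced design the block cannot move a log2 difference or a class median.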
